A study of Homo sapiens with 6 samples.

Results

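GPRC5A, an orphan receptor gene of the class C family of G protein-coupled receptors, and 9 other genes of retinoid signalling were followed in oesophageal cancer cells treated against ZNF514. The genes were taken by symbol from a table of 50868 genes, and all 10 were found: GPRC5A, GPRC5C, the retinoic acid receptor genes RARA, RARB and RARG, the retinoid X receptor genes RXRA and RXRB, and CRABP2, ALDH1A3 and DHRS3. They were chosen by the counts of these same libraries, in which GPRC5A was among the strongest increases. Its difference is therefore given as a description, without a test. The others were listed for what their products do, but with earlier results of these data known.

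Retinoic acid is made from vitamin A in cells that oxidise retinol to retinal and retinal to retinoic acid. It binds nuclear retinoic acid receptors (RARs), which pair with retinoid X receptors (RXRs) on response elements in DNA, recruit corepressors without ligand and coactivators with it, and so switch genes on or off. CYP26 enzymes then hydroxylate and clear it. In stratified squamous epithelia such as the lining of the oesophagus, retinoids are known to hold back cornification. GPRC5A was first found as a transcript that retinoic acid induces, and its product has been described as a tumour suppressor in mouse lung.

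The cells were KYSE-150, an established line from a human squamous carcinoma of the oesophagus, grown in RPMI medium with fetal bovine serum, and their RNA was sequenced. One group of 3 libraries, named siZNF514 here, is described by the labels as a ZNF514 knockout by siZNF514. The other group of 3, titled nc, is called wild type in the series text. The labels name no siRNA for nc cells, no retinoid treatment and no retinoid content of the serum. Nor do they name separate cultures for the replicates, so each p-value below rests on the spread among these libraries alone, and that spread may be technical.

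The siZNF514 libraries held 13262363 to 14318909 counts and the nc libraries 12175259 to 13696180. ZNF514 itself had 64, 82 and 63 counts in siZNF514 libraries, against 239, 273 and 261 in nc libraries. All 8 epithelial markers were present, with 62801 to 75985 summed counts in siZNF514 libraries and 52568 to 63040 in nc libraries. They did not move together. KRT8 (log2 fold change 0.58), KRT18 (0.77) and EPCAM (0.41), which simple epithelia also express, were higher, with edgeR adjusted p of 0.0037, 8.64e-06 and 0.000175. The basal squamous keratin genes KRT5 (-0.52, edgeR adjusted p = 0.000842) and KRT14 (-1.23, edgeR adjusted p = 0.000373) were lower. TP63 (-0.17, edgeR adjusted p = 0.14), SFN (-0.07, edgeR adjusted p = 0.238) and CDH1 (-0.23, edgeR adjusted p = 0.403) did not pass. TP63 and SFN each passed as lower in 4 of 15 alternatives. CDH1 was uneven, with 295, 544 and 522 CPM in siZNF514 libraries, against 487, 544 and 564 in nc libraries. The part of these marker shifts in the results below was not tested. The library siZNF514 replicate 3 stood apart in fibroblast markers. All 6 had a count there, 237 in sum, against 7 and 6 in the other siZNF514 libraries, in which PDGFRA, DCN, COL1A2 and COL3A1 were at 0, and 24 to 45 in nc libraries. The 5 leukocyte markers summed to 622 to 744 counts in siZNF514 libraries and 706 to 973 in nc libraries, nearly all from CD68, which did not pass (log2 fold change -0.23, edgeR adjusted p = 0.0654) but passed as lower in 7 of 15 alternatives. Of that list, PTPRC had 0 to 5 counts in siZNF514 libraries and 0 to 1 in nc libraries. The endothelial list summed to 24 to 33 counts in siZNF514 libraries and 40 to 45 in nc libraries. Without siZNF514 replicate 3, GPRC5A differed by 0.99 on the log2 scale, against 0.97 with it, and of the other members 2 were called higher and 3 lower. In bulk samples, fewer cells of a type and less RNA per cell cannot be told apart.

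GPRC5A (ENSG00000013588; GRCh38 chromosome 12, 12890782 to 12917937, plus strand) was the most abundant of the 10 per gene length, by a wide margin in both groups. Levels are in CPM, which are counts scaled to the library's total over the tested genes and its TMM factor. GPRC5A had 1682, 1672 and 1643 CPM in siZNF514 libraries, against 854, 845 and 858 in nc libraries. The 2 groups lay far apart and each was tight, with means of 1666 ± 20.3 and 852 ± 6.47 CPM (SD, n = 3 each). In siZNF514 cells GPRC5A stood 1.96-fold higher, a log2 fold change of 0.97 with a standard error (SE) of 0.02. It took 0.157% to 0.162% of all counts in siZNF514 libraries and 0.0880% to 0.0894% in nc libraries. By the deposited FPKM, which is per gene length, it ranked 177 to 194 among all genes in siZNF514 libraries and 309 to 317 in nc libraries. Among the 14250 genes with enough counts to test, 361 had a larger log2 fold change. Among the 223 genes with a mean of at least 500 CPM, 4 had a larger log2 fold change.

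By the rule for likeness, which took the tested genes with a mean of at least 10 CPM (10074 others) whose log2 CPM, each gene centred on its own mean, lay nearest to GPRC5A over the 6 libraries, the closest were NEDD4L, NCEH1, FDFT1, MCL1 and CDK6. Their root mean square distances on the log2 scale were 0.021, 0.025, 0.028, 0.030 and 0.031. NEDD4L, which encodes a ubiquitin ligase, had 384.5, 398 and 379 CPM in siZNF514 libraries, against 202, 199 and 203 CPM in nc libraries. These 5 genes were picked for this pattern, so their log2 fold changes of 0.95 to 1.00 carry no test.

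**Figure D1:**
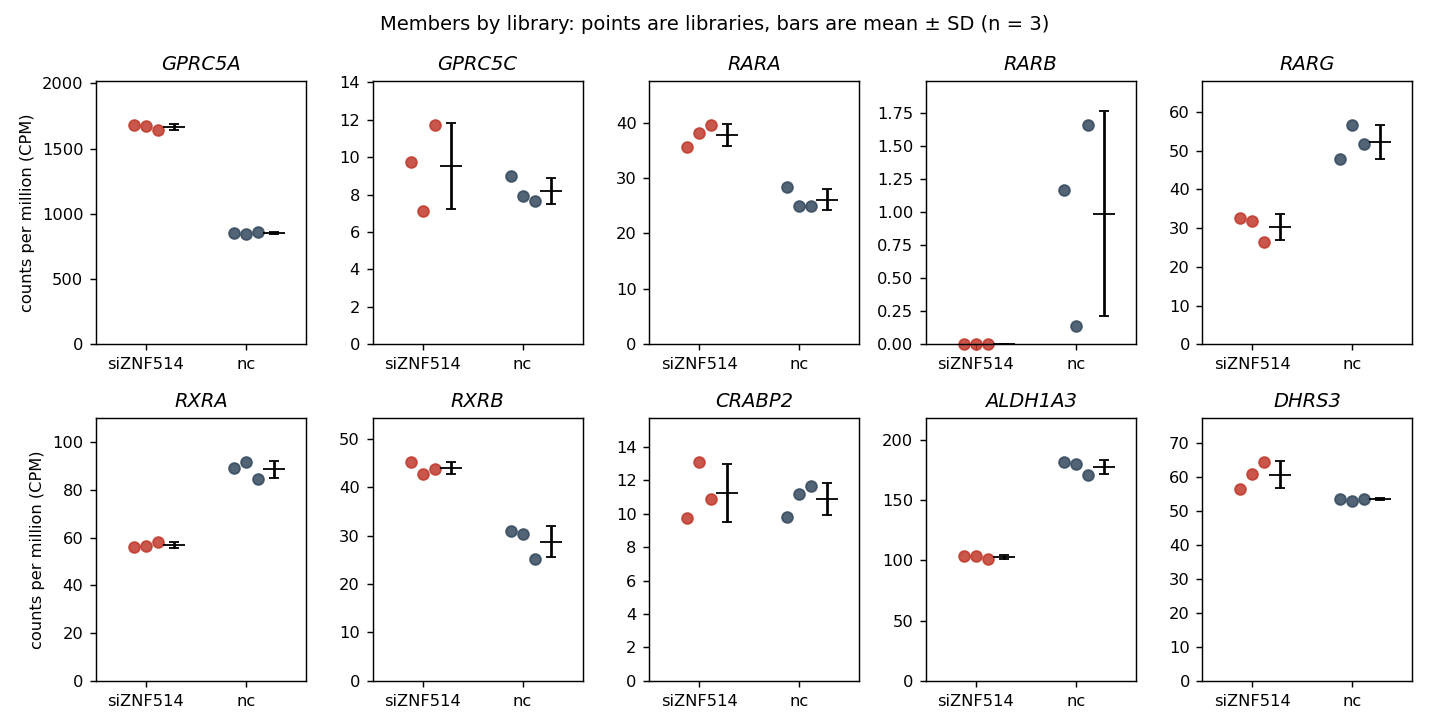
Level of each member in CPM (y axis, from 0, a scale of its own in each panel) in the 3 siZNF514 libraries (red) and the 3 nc libraries (dark). Points are libraries and bars are means with SD. GPRC5A, RARA, RXRB and DHRS3 lie higher in every siZNF514 library, RARG, RXRA, ALDH1A3 and RARB lie lower, and the groups overlap for GPRC5C and CRABP2.

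Of the relatives of GPRC5A, GPRC5B fell and GPRC5C did not pass the test. GPRC5C (ENSG00000170412; chromosome 17, 74424851 to 74451653, plus strand), a paralog that is also retinoid-inducible, had 9.73, 7.13 and 11.7 CPM in siZNF514 libraries, against 9.005, 7.93 and 7.65 CPM in nc libraries. The groups overlapped, and the siZNF514 libraries varied more among themselves than the groups differed. GPRC5C did not pass the test (log2 fold change 0.22, 95% interval -0.23 to 0.67, adjusted p = 0.375). Throughout, the test was the edgeR quasi-likelihood test on counts with Benjamini-Hochberg adjustment over all 14250 genes at a threshold of 0.05. GPRC5B, a family gene expressed mainly in neural tissue, had 0.706, 0.920 and 1.03 CPM in siZNF514 libraries, against 3.11, 3.58 and 3.08 CPM in nc libraries. It fell at this low level (log2 fold change -1.87, SE 0.22, edgeR adjusted p = 0.00043). GPRC5D, the neighbour of GPRC5A on chromosome 12, had 1 count in all 6 libraries together.

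Of the 9 members other than GPRC5A, 8 had enough counts to test, and 6 of these passed, 3 higher and 3 lower. Of all genes tested 50.6% passed, 25.5% being higher and 25.1% lower, so a call by itself is common here. Counting RARB, which was too low to test, 7 of the 9 had groups that did not overlap, 3 with every siZNF514 library above every nc library and 4 with every one below. Over all genes tested, 60.3% had groups that did not overlap, 30% above and 30.3% below. The median log2 fold change of the 8 was 0.12, beside -0.01 over all genes.

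The receptors split by isotype. RARA (ENSG00000131759; chromosome 17, 40309192 to 40357643, plus strand), the widely expressed retinoic acid receptor, had 35.5, 38.1 and 39.6 CPM in siZNF514 libraries, against 28.3, 25.0 and 25.0 CPM in nc libraries. Every siZNF514 library was above every nc library, and RARA rose 1.45-fold (log2 fold change 0.53, SE 0.08, edgeR adjusted p = 0.00158). RARG (ENSG00000172819; chromosome 12, 53210567 to 53232980, minus strand), the main retinoic acid receptor of skin and other squamous epithelia, had 32.5, 31.8 and 26.3 CPM in siZNF514 libraries, against 48.0, 56.7 and 51.8 CPM in nc libraries. Here every siZNF514 library was below every nc library, and RARG fell, 1.73-fold lower (log2 fold change -0.79, SE 0.10, edgeR adjusted p = 0.000724).

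The partners of these receptors also moved in opposite directions. RXRA (ENSG00000186350; chromosome 9, 134317098 to 134440585, plus strand) had 56.2, 56.4 and 58.3 CPM in siZNF514 libraries, against 89.2, 91.8 and 84.7 CPM in nc libraries. It fell 1.55-fold with no overlap between groups (log2 fold change -0.64, SE 0.05, edgeR adjusted p = 9.68e-05). RXRB (ENSG00000204231; chromosome 6, 33193588 to 33200688, minus strand) had 45.3, 42.7 and 43.8 CPM in siZNF514 libraries, against 31.0, 30.2 and 25.1 CPM in nc libraries. It rose 1.53-fold, again with no overlap (log2 fold change 0.61, SE 0.09, edgeR adjusted p = 0.00138). The zinc transporter gene SLC39A7 overlaps RXRB on the opposite strand and had 4571 summed counts in siZNF514 libraries and 5614 in nc libraries, against 1732 and 1148 for RXRB. Since no source used here gives the strand setting of counting, reads of these 2 genes may not have been told apart where they overlap. The third RXR gene, RXRG, had 2 counts in all, both in nc.

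**Figure D2:**
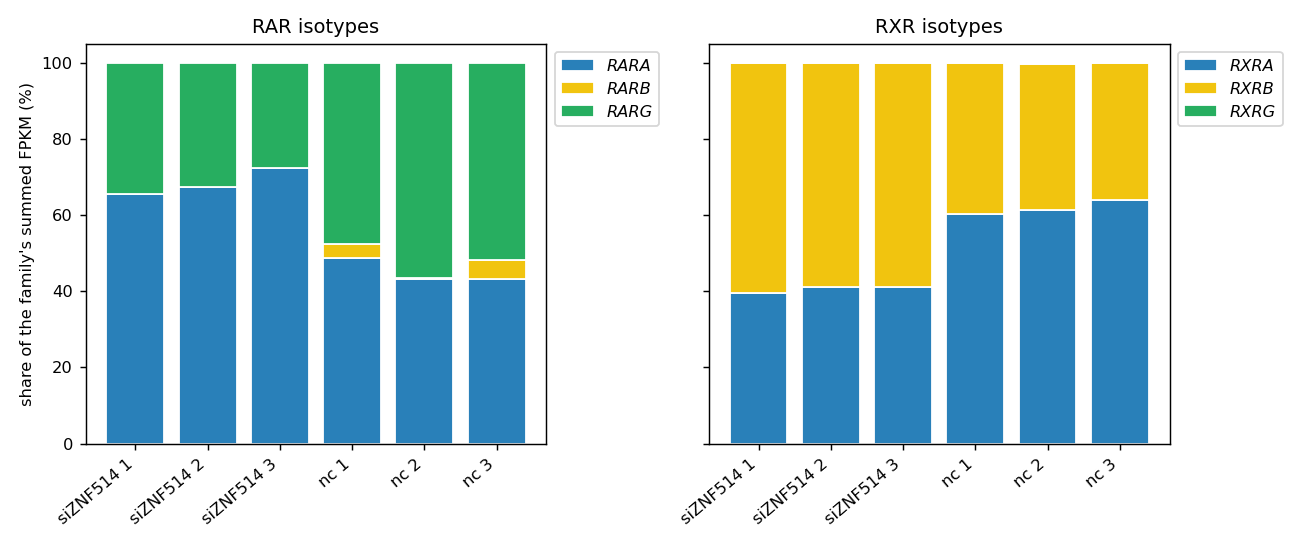
Share of each isotype (y axis, percent of the family's summed FPKM) in each library, for the retinoic acid receptors on the left and the retinoid X receptors on the right. RARA holds 65.5% to 72.3% of the RAR sum in siZNF514 libraries and 43.1% to 48.9% in nc libraries, and RXRA holds 39.5% to 41.2% of the RXR sum in siZNF514 libraries and 60.3% to 64.0% in nc libraries.

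Per gene length, the isotype shares of both families differed between the groups. RARA led RARG in every siZNF514 library and, narrowly, in nc replicate 1, and RARG led in nc replicates 2 and 3. RARA made up 68.4 ± 3.49% of the summed RAR FPKM in siZNF514 cells and 45.1 ± 3.25% in nc cells (SD, n = 3 each), and RARG made up 31.6 ± 3.49% in siZNF514 cells and 52.0 ± 4.38% in nc cells. In the other family, RXRB made up 59.4 ± 0.928% of the summed RXR FPKM in siZNF514 cells and 38.0 ± 1.90% in nc cells. For each of these shares the groups did not overlap, and p was 0.1 in an exact two-sided permutation test over libraries, the lower limit with 3 libraries on each side. The totals differed less. The summed RAR FPKM was 6.56 to 6.77 in siZNF514 libraries and 7.57 to 7.64 in nc libraries, and after division by the TMM factor it was 6.82 to 7.09 and 7.25 to 7.29 (exact two-sided permutation p = 0.1 for both). The summed RXR FPKM was 11.28 to 11.75 in siZNF514 libraries and 11.86 to 13.4 in nc libraries (exact two-sided permutation p = 0.1). After division by the TMM factor the RXR sums overlapped, with 11.8 to 12.2 in siZNF514 libraries and 11.4 to 12.9 in nc libraries (exact two-sided permutation p = 0.6).

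RARB (ENSG00000077092; chromosome 3, 25174332 to 25597932, plus strand) encodes the receptor that retinoic acid itself induces and that is silenced in many carcinomas. It had no count in any siZNF514 library, against 15, 2 and 21 counts in nc libraries. The second nc library was low, so the nc level of 0.987 ± 0.774 CPM was uneven. With 3 counts over the 3 siZNF514 libraries as the floor (0.0761 CPM), the pooled nc level of 0.954 CPM was 12.5-fold above the floor. This bound covers counting error in siZNF514 libraries only and takes the 38 nc counts as they stand. Leaving out 1 library, an alternative chosen after seeing the data, moved the bound to between 8.2-fold (without siZNF514 replicate 3) and 18.5-fold (without nc replicate 2), and it was 8.23-fold without nc replicate 3. The filter on low counts left RARB out of the test, and also in the fits without nc replicate 1 or nc replicate 3. In the edgeR fit without that filter its adjusted p was 0.0144, and in limma-trend on log2(FPKM + 0.1) without a filter it did not pass (adjusted p = 0.072). In the fits without 1 library in which it passed the filter the edgeR adjusted p ran from 0.00512 (without nc replicate 2) to 0.0619 (without siZNF514 replicate 3). TOP2B overlaps RARB on the opposite strand and had 6361 summed counts in siZNF514 libraries and 5185 in nc libraries.

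Retinoic acid receptors are known to bind direct repeats in DNA, so promoters of the members were searched for them. RefSeq promoter windows on GRCh38.p14, which run from 250 bases before to 50 bases after a transcript start, were found for 8 of the 10 members (17 windows). They were searched on both strands for direct repeats of 2 receptor half-sites, each of A or G, then G, then G or T, then TCA, with 1, 2 or 5 bases between them (named DR1, DR2 and DR5). A DR5 was in 31 of all 35116 windows (0.0883%), a DR1 in 46 (0.131%) and a DR2 in 14 (0.0399%). Among 78 listed pathway genes with 127 windows, none held a DR1 or DR2, and RARB and the retinoic acid hydroxylase gene CYP26A1 held a DR5, in 1 of 4 and 1 of 2 windows. Both windows are shown because these are the genes in which such an element is textbook knowledge, with the DR5 in capitals: chr3:25428013-25428312, plus strand, for RARB, with the element at 25428210 to 25428226, and chr10:93073643-93073942, plus strand, for CYP26A1, with the element on the opposite strand at 93073803 to 93073819.
RARB: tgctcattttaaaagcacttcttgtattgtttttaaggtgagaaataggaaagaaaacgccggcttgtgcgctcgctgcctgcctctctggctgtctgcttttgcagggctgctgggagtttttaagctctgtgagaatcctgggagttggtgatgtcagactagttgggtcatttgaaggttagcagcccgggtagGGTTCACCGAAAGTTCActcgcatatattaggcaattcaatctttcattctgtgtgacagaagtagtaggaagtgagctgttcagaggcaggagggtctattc
CYP26A1: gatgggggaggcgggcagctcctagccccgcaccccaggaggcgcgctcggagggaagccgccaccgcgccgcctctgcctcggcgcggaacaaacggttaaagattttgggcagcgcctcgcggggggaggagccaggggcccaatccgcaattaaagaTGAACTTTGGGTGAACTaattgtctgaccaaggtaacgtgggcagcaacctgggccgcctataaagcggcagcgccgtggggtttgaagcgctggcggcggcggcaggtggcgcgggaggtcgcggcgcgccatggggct
CYP26A1 had no count in any siZNF514 library, against 2, 0 and 2 counts in nc libraries. The counts are per gene, so transcripts from different starts of RARB cannot be told apart, and the match says only that these letters are in the window.

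**Figure D3:**
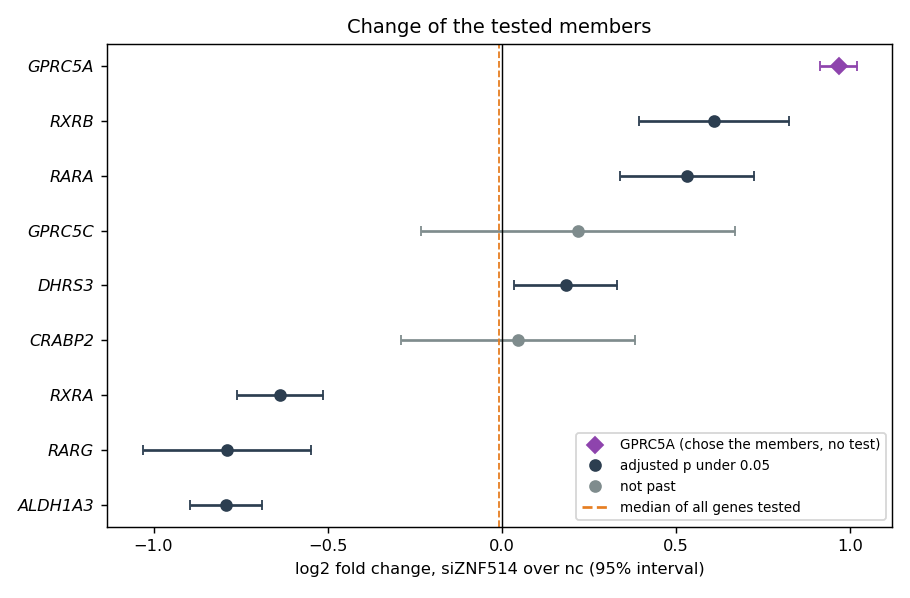
Log2 fold change of the 9 members with enough counts to fit, siZNF514 over nc (x axis), with 95% intervals. GPRC5A (diamond) chose the members and carries no test, dark points passed an adjusted p of 0.05, grey points did not, and the dashed line is the median of all genes tested. The fitted values run from -0.79 for ALDH1A3 and RARG to 0.97 for GPRC5A.

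Among the enzymes, the one that makes retinoic acid fell. ALDH1A3 (ENSG00000184254; chromosome 15, 100877714 to 100916626, plus strand) encodes a retinaldehyde dehydrogenase, which oxidises retinal to retinoic acid. It had 104, 103 and 101 CPM in siZNF514 libraries, against 182, 180 and 171 CPM in nc libraries. The groups were far apart, with means of 103 ± 1.40 and 178 ± 5.89 CPM (SD, n = 3 each), and ALDH1A3 was 1.73-fold lower (log2 fold change -0.79, SE 0.04, edgeR adjusted p = 2.22e-05). The antisense transcript AC015712.2 overlaps it with 93 summed counts in siZNF514 libraries and 187 in nc libraries, which is 2.30% and 2.64% of the ALDH1A3 counts. ALDH1A3 was the only one of the 3 retinaldehyde dehydrogenase genes with enough counts to test: ALDH1A1 had 5, 11 and 10 counts in siZNF514 libraries and 6, 16 and 9 in nc libraries, and ALDH1A2 had 1 to 2 and 1 to 5.

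Of the 3 listed retinoic acid hydroxylase genes, the only one with enough counts to test was lower too. CYP26B1, which hydroxylates retinoic acid, had 8.47, 7.13 and 6.01 CPM in siZNF514 libraries, against 16.2, 16.2 and 14.3 CPM in nc libraries. Every siZNF514 library lay below the nc libraries, and CYP26B1 fell 2.16-fold (log2 fold change -1.11, SE 0.15, edgeR adjusted p = 0.000732). Of its relatives, CYP26C1 had no count in any library.

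DHRS3 (ENSG00000162496; chromosome 1, 12567910 to 12617731, minus strand) encodes a reductase that returns retinal to retinol and is induced by retinoic acid. Its level was 56.7, 60.9 and 64.6 CPM in siZNF514 libraries, against 53.6, 53.2 and 53.7 CPM in nc libraries. The nc libraries were nearly equal and all siZNF514 libraries were above them, but by little: DHRS3 passed narrowly (log2 fold change 0.18, SE 0.06, edgeR adjusted p = 0.0445). The call was lost with total counts alone in place of TMM scaling (log2 fold change 0.06, edgeR adjusted p = 0.473) and without siZNF514 replicate 2, siZNF514 replicate 3, nc replicate 1, nc replicate 2 or nc replicate 3 (0.14 to 0.19, edgeR adjusted p 0.0895 to 0.105).

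Of 19 listed enzymes of retinol and retinal, DHRS3 included, 9 could be tested, with 2 higher, 1 lower and 6 not past (median log2 fold change -0.06, beside -0.01 for all genes). That is 22.2% higher and 11.1% lower, beside 25.5% and 25.1% of all genes tested. PNPLA4, a lipase that acts on retinol esters, rose to 27.5 ± 1.87 CPM in siZNF514 cells, against 20.7 ± 2.39 in nc cells (0.41, SE 0.11, edgeR adjusted p = 0.0163). PNPLA4 lost this call in 6 of 15 alternatives. These were the fits without nc replicate 1 or nc replicate 3 (0.36, edgeR adjusted p 0.0504 to 0.0516), total counts alone (0.28, edgeR adjusted p = 0.062) and every limma-trend fit on log2 FPKM (limma adjusted p 0.0565 to 0.0953). DHRS4, a retinal reductase with close copies beside it that could share reads, fell to 20.8 ± 2.46 CPM in siZNF514 cells, against 27.6 ± 1.46 in nc cells (-0.41, SE 0.10, edgeR adjusted p = 0.0146). The retinol dehydrogenase RDH10, which makes the retinal that ALDH1A3 uses, did not pass, with 23.4 ± 1.85 CPM in siZNF514 cells and 23.0 ± 0.971 in nc cells (0.03, 95% interval -0.18 to 0.23), nor did RDH11 at 141 ± 13.4 and 147 ± 2.91 CPM. LRAT, which stores retinol as esters, and the alcohol dehydrogenase genes ADH4 and ADH7 had no count in any library.

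CRABP2 (ENSG00000143320; chromosome 1, 156699606 to 156705816, minus strand) encodes the protein that carries retinoic acid to its receptors in the nucleus. It had 9.73, 13.1 and 10.8 CPM in siZNF514 libraries, against 9.78, 11.2 and 11.7 CPM in nc libraries. The groups overlapped fully and CRABP2 did not pass (log2 fold change 0.05, 95% interval -0.29 to 0.38, edgeR adjusted p = 0.803), so differences within that interval were not detectable here. FABP5, which can deliver retinoic acid to PPARD instead, did not pass either, with 20.5 ± 1.09 CPM in siZNF514 cells and 19.7 ± 0.896 in nc cells (0.05, 95% interval -0.14 to 0.25). Among the other listed carriers, RBP2, RBP4 and RBP7 had no count in any library. CRABP1 had 2 counts in all, and STRA6, the retinol uptake receptor, had 5, 7 and 0 counts in siZNF514 libraries and 18, 14 and 4 in nc libraries.

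By deposited FPKM, the order of the members within each group showed 2 exchanges. In siZNF514 cells it ran GPRC5A (141 ± 2.25), DHRS3 (17.3 ± 1.07), ALDH1A3 (14.5 ± 0.247), RXRB (6.86 ± 0.232), RXRA (4.69 ± 0.0854), RARA (4.54 ± 0.225), CRABP2 (4.48 ± 0.672), RARG (2.09 ± 0.241), GPRC5C (0.730 ± 0.176) and RARB (0 in every library). In nc cells it ran GPRC5A (78.6 ± 0.699), ALDH1A3 (27.4 ± 0.965), DHRS3 (16.7 ± 0.125), RXRA (7.95 ± 0.325), RXRB (4.90 ± 0.555), CRABP2 (4.73 ± 0.412), RARG (3.95 ± 0.319), RARA (3.43 ± 0.265), GPRC5C (0.685 ± 0.0621) and RARB (0.223 ± 0.175). DHRS3 thus stood above ALDH1A3, and RXRB above RXRA, in siZNF514 cells, and both pairs stood the other way in nc cells. RXRA, RARA and CRABP2 overlapped with their neighbours in siZNF514 cells, as did RXRB, CRABP2, RARG and RARA in nc cells, and their order is not resolved.

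The other genes of the pathway were taken from 11 lists by role. They held 88 genes besides the members, of which 17 had no count in any library and 49 could be tested. Of these 49, 11 rose, 17 fell and 21 did not pass (22.4% higher and 34.7% lower, beside 25.5% and 25.1% of all genes), with a median log2 fold change of -0.11. The balance depended on the scaling: with total counts alone 7 rose and 19 fell, and over all genes 2493 were higher and 4775 lower, against 3629 and 3583 with TMM factors, as the median of all genes moved to -0.14 from -0.01. Without nc replicate 3 the number that rose was also 7, and without siZNF514 replicate 3, the library with fibroblast marker counts, 8 rose and 19 fell.

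Receptor coactivators were mostly lower. Of 12 tested coregulators, 6 fell, 2 rose and 4 did not pass (median log2 fold change -0.47). That is 50% lower and 16.7% higher, beside 25.1% and 25.5% of all genes tested, in a list chosen with earlier results known. The paired histone acetyltransferase genes CREBBP (-0.63, SE 0.09, edgeR adjusted p = 0.000997) and EP300 (-0.50, SE 0.06, edgeR adjusted p = 0.000458) fell, as did the Mediator subunit gene MED1 (-0.62, SE 0.09) and the p160 coactivator genes NCOA2 (-0.44, SE 0.07) and NCOA1 (-0.53, SE 0.14; not past at -0.47 without nc replicate 3). NRIP1, a ligand-dependent corepressor that retinoic acid induces, had 27.3, 25.5 and 25.2 CPM in siZNF514 libraries, against 56.0, 55.8 and 55.9 CPM in nc libraries. Both groups were tight and well apart, and NRIP1 fell (-1.10, SE 0.06, edgeR adjusted p = 1.98e-05). NCOA3, the remaining p160 gene, passed narrowly (0.15, SE 0.05, edgeR adjusted p = 0.0448), a call lost in 13 of 15 alternatives. Among these were total counts alone (0.02) and the fits without siZNF514 replicate 2, siZNF514 replicate 3, nc replicate 1, nc replicate 2 or nc replicate 3 (0.13 to 0.17). NCOR1 (0.12, edgeR adjusted p = 0.0653) did not pass, but passed at 0.16 without nc replicate 2. HDAC3, a deacetylase of nuclear receptor corepressor complexes, did not pass (-0.65, SE 0.24) and rested on an uneven first nc library of 95.7 CPM beside 57.8 and 52.9; it passed at -0.81 without siZNF514 replicate 1 or nc replicate 3, at -0.78 with total counts alone, and at -0.73 and -0.65 in limma-trend on log2(FPKM + 0.1) and log2(FPKM + 1).

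**Figure D4:**
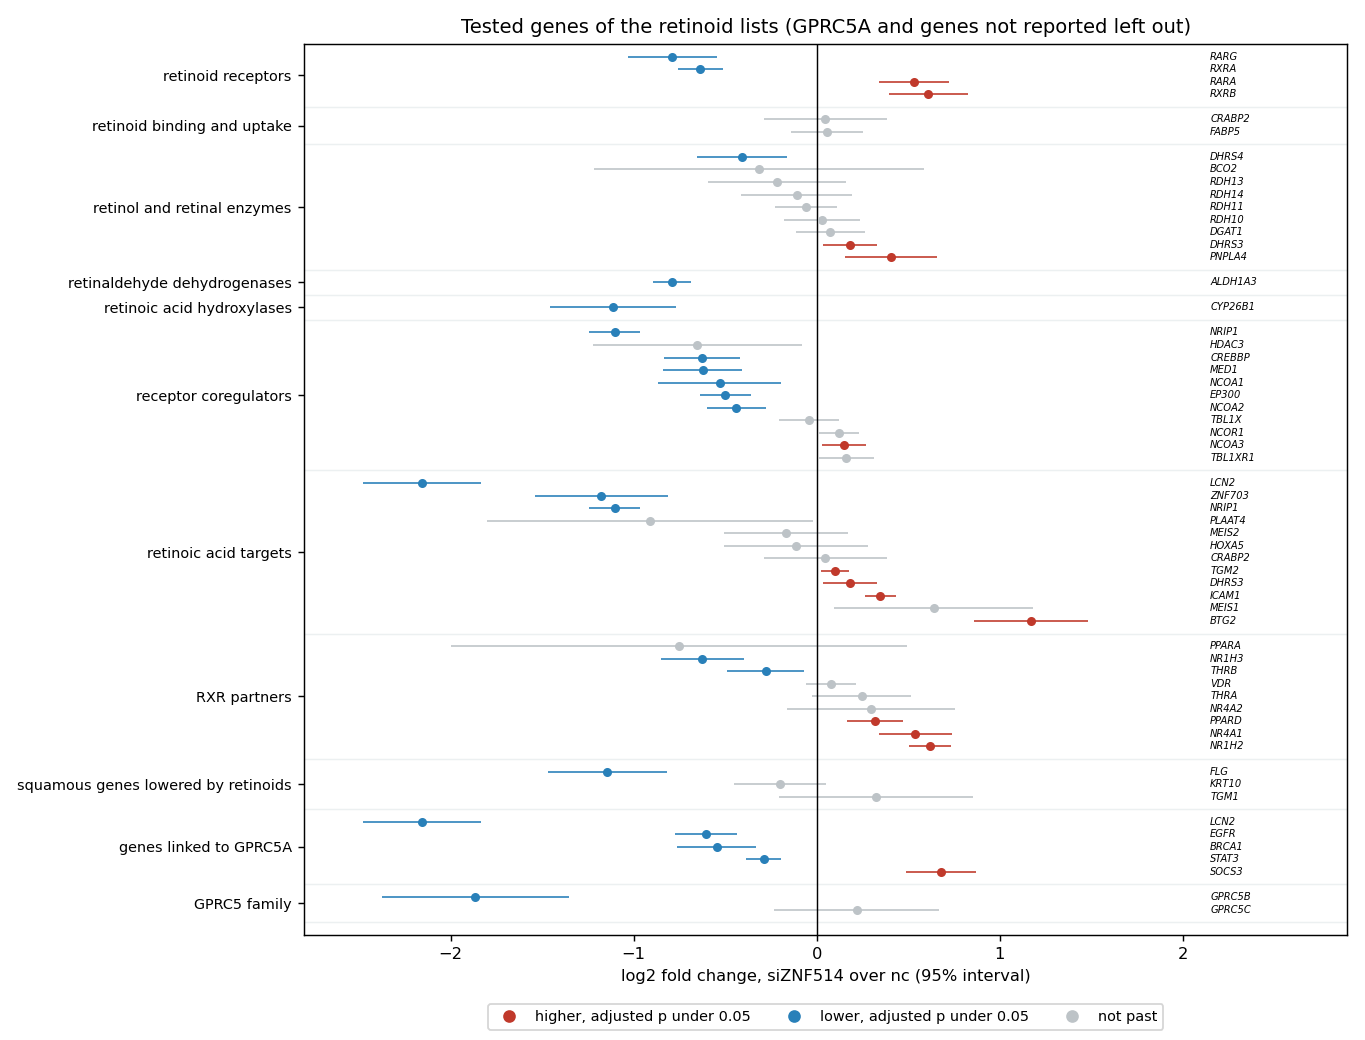
Log2 fold change, siZNF514 over nc (x axis), of tested genes of the 11 retinoid lists with 95% intervals, GPRC5A and the genes not reported here left out. Red points were higher and blue points lower at an adjusted p of 0.05, and grey points did not pass. Genes on more than 1 list appear more than once. Coactivators lie mostly to the left, and targets of retinoic acid lie on both sides, from -2.16 for LCN2 to 1.17 for BTG2.

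Known targets of retinoic acid did not move as 1 group. Of 22 listed besides GPRC5A, 13 could be tested, with 5 higher, 3 lower and 5 not past (median log2 fold change 0.05). That is 38.5% higher and 23.1% lower, beside 25.5% and 25.1% of all genes tested. BTG2, an antiproliferative gene, had 11.4, 11.96 and 11.1 CPM in siZNF514 libraries, against 4.42, 5.12 and 5.76 CPM in nc libraries, and rose 2.25-fold (1.17, SE 0.13, edgeR adjusted p = 0.000379). The adhesion receptor gene ICAM1 rose to 340 ± 3.36 CPM in siZNF514 cells, against 267 ± 6.93 in nc cells (0.35, SE 0.04, edgeR adjusted p = 0.000238). On the other side, LCN2, which encodes the siderophore-binding protein lipocalin 2, had 3.92, 3.91 and 3.59 CPM in siZNF514 libraries, against 15.8, 19.6 and 15.7 CPM in nc libraries. LCN2 fell 4.46-fold (-2.16, SE 0.14, edgeR adjusted p = 3.55e-05), and the transcriptional repressor gene ZNF703 fell with it (-1.18, SE 0.15, edgeR adjusted p = 0.000731), as did NRIP1.

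The abundant target TGM2, a transglutaminase gene, had 725, 721 and 766 CPM in siZNF514 libraries, against 692, 690 and 683 CPM in nc libraries. It passed (log2 fold change 0.10, SE 0.03, edgeR adjusted p = 0.0365), but turned to -0.03 with total counts alone and on the log2 FPKM scale. The call was also lost without siZNF514 replicate 3, nc replicate 1, nc replicate 2 or nc replicate 3 (0.08 to 0.10). The same held with a replicate block (0.10) and at a mean count of at least 50 (0.06). MEIS1 (0.64, SE 0.23) and PLAAT4 (-0.91, SE 0.38) did not pass, but MEIS1 passed at 0.81 without siZNF514 replicate 2. PLAAT4 passed at -1.51 without siZNF514 replicate 3, its highest siZNF514 library and the one with fibroblast marker counts, whose part in this was not tested. With all libraries, MEIS1 (0.64, DESeq2 adjusted p = 0.0295) and PLAAT4 (-0.92, DESeq2 adjusted p = 0.045) passed in DESeq2. PLAAT4 also passed in limma-trend on log2(FPKM + 0.1) (-1.03, limma adjusted p = 0.0349) and log2(FPKM + 1) (-0.46, limma adjusted p = 0.0276). The targets HOXB1, CDX1, CEBPE and RARRES1 had no count in any library.

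Other nuclear receptors that pair with RXR also went both ways, with 3 of 9 tested higher, 2 lower and 4 not past (median log2 fold change 0.25). These shares, 33.3% higher and 22.2% lower, were near the 25.5% and 25.1% of all genes tested, which also went both ways. NR1H2, the widely expressed liver X receptor gene, had 137, 140 and 146 CPM in siZNF514 libraries, against 91.1, 89.1 and 95.9 CPM in nc libraries, and rose 1.53-fold (0.62, SE 0.05, edgeR adjusted p = 8.59e-05). Its paralog NR1H3 fell (-0.63, SE 0.10, edgeR adjusted p = 0.00156). PPARD (0.32, SE 0.06) and the orphan receptor gene NR4A1 (0.54, SE 0.08) rose. The thyroid hormone receptor gene THRB passed as lower (-0.28, SE 0.09, edgeR adjusted p = 0.034), a call lost in 8 of 15 alternatives. Among these were the fits without any 1 library other than siZNF514 replicate 3 (-0.29 to -0.23). THRA, not past at 0.25, passed at 0.36 without nc replicate 2. The vitamin D receptor gene VDR did not pass (0.08, 95% interval -0.06 to 0.21), nor did PPARA (-0.75, 95% interval -2.0 to 0.49), whose counts were uneven in both groups.

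Cornification genes that retinoids lower in keratinocytes were mostly too low to test. Of 10 listed, IVL, LORICRIN and KRT1 had no count in any library and 3 were tested. The filaggrin gene FLG fell to 8.03 ± 1.05 CPM in siZNF514 cells, against 17.8 ± 1.85 in nc cells (-1.14, SE 0.14, edgeR adjusted p = 0.0005). TGM1 (0.32, 95% interval -0.21 to 0.85) and KRT10 (-0.20, 95% interval -0.45 to 0.05) did not pass. KRT10 passed as lower at -0.31 without siZNF514 replicate 3, and with all libraries at -0.33 with total counts alone. In limma-trend on log2(FPKM + 0.1) and log2(FPKM + 1), KRT10 passed at -0.33 and -0.32. SPRR1B had 8 counts in nc libraries together and none in siZNF514 libraries.

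All 5 genes listed as studied together with GPRC5A passed, 1 higher and 4 lower, where 50.6% of all genes tested passed. The list is short and was chosen with earlier results of these data known, so this count is no test of it. The growth factor receptor gene EGFR, whose product phosphorylates GPRC5A, had 369, 354 and 415 CPM in siZNF514 libraries, against 601, 595 and 534.5 CPM in nc libraries. No library of one group reached the other, and EGFR fell 1.52-fold (-0.60, SE 0.07, edgeR adjusted p = 0.00046). STAT3, which is more active in Gprc5a-deficient mouse lung, fell (-0.29, SE 0.04, edgeR adjusted p = 0.00104), and its feedback inhibitor gene SOCS3 rose to 43.1 ± 1.95 CPM in siZNF514 cells, against 26.9 ± 2.19 in nc cells (0.68, SE 0.08, edgeR adjusted p = 0.000483). BRCA1 fell (-0.55, SE 0.09, edgeR adjusted p = 0.00236), and LCN2, raised in the same mice, was given above.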

How the data were processed

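RNA sequencing of 6 KYSE-150 libraries was deposited by the authors as 1 table of 50868 genes with a count column and an FPKM column for each library. Per the submitters' processing notes, hg38, HISAT2 2.0.4, StringTie 1.3.3b and edgeR were used, without roles. No source used here gives the annotation release, strandedness or filters. The deposited counts were whole numbers. The deposited FPKM equalled the count over 1 length per gene and the library total, with lengths within 0.079% across libraries for 22289 genes, so FPKM was used only for levels between genes and as an alternative.

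Columns were matched to libraries by title; 0 other per-sample columns were present. Genes were filtered with filterByExpr (minimum count 10, minimum total 15), scaled by TMM and compared by the edgeR 4.0.16 quasi-likelihood test in R 4.3.3, siZNF514 over nc, with Benjamini-Hochberg adjustment over 14250 genes. CPM are counts scaled to the tested-gene total times the TMM factor; 1 count was 0.0701 to 0.0789 CPM. SE is the log2 fold change over the square root of F, and intervals are 95%. The script was tested on simulated data. Exact permutation tests had a smallest p of 0.1. Libraries of a group differed by more than sampling noise (chi-square per degree of freedom 7.43 to 9.69).

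The members and all 15 gene and marker lists were chosen with earlier results of these data known, and every listed gene that passed the filter could be named. A few listed genes are not reported here by name, though list counts include them. Alternatives were a replicate block, each library left out, DESeq2 size factors, total counts, the Wald test of DESeq2 1.42.0, no filter, a minimum mean count of 50, and limma 3.58.1 trend on log2(FPKM + 0.1 or 1). No batch is given in the labels. Floors cover counting error in the siZNF514 libraries only, while intervals come from the fit and include the spread between libraries.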

Additional observations from a re-analysis of the deposited data

How the results depend on the processing

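Depth limited the low genes: 3 counts over the 3 siZNF514 libraries is 0.0761 CPM, and genes such as RARB, CYP26A1 and STRA6 had too few counts to test. The calls of RARA, RARG, RXRA, RXRB and ALDH1A3 kept their direction and stayed past the threshold in all 15 alternatives, with edgeR, DESeq2 or limma adjusted p of at most 0.0126, while DHRS3 lost its call in 12. Of the other members, 2 to 3 were higher and 3 to 4 lower in every alternative. The log2 fold change of GPRC5A was 0.97; it was 0.84 with total counts alone, 0.99 with no filter, 0.93 at a mean count of at least 50, 0.84 in limma-trend on log2(FPKM + 0.1) with or without the filter, 0.83 on log2(FPKM + 1), and 0.96 to 0.99 with 1 library left out. Of the 49 other pathway genes, 11 rose; this was 7 with total counts alone, 6 in limma-trend on log2(FPKM + 0.1) and on log2(FPKM + 1), 4 without the FPKM filter, and 7 to 11 with 1 library left out. TGM2 (0.10) turned to -0.028 with total counts alone, -0.028 in limma-trend on log2(FPKM + 0.1) with and without the filter, and -0.028 on log2(FPKM + 1). With 1 library left out, differences in isotype share (siZNF514 minus nc) were 21.4 to 25.2 percentage points for RARA, -4.20 to -1.94 for RARB, -22.5 to -18.1 for RARG, -22.1 to -20.2 for RXRA and 20.4 to 22.2 for RXRB. Deviations of same-numbered libraries correlated by -0.036 to 0.041, and those of differently numbered libraries by -0.063 to 0.053. No pairing by number was seen, though such correlations cannot exclude it. With replicate number as a block, 3356 genes were higher and 3284 lower, members other than GPRC5A were 2 higher and 3 lower, and pathway genes 9 higher and 17 lower; HDAC3 passed (-0.62, edgeR adjusted p = 0.00477).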
